A study of Mus musculus with 4 samples.

Results

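Macrophages take up modified lipoproteins, microbes and dying cells through a varied set of surface receptors. The 10 genes described here were chosen by name for that role, with earlier results of these data known. They are the scavenger and endocytic receptors Msr1, Marco, Stab1, Scarb1, Mrc1 and Cd163, the receptor tyrosine kinases Mertk and Axl, and the secreted proteins Gas6 and Mfge8, which tie a dying cell to its receptor. All 10 were among the 19938 genes with a probe of 1 gene symbol, and each was measured by 1 probe. Of the 10, 9 reached the signal filter, a log2 signal of 6.47 (the median of all values) on at least 1 array, as did 12203 genes in all. Cd163 stayed under it on every array.

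The cells were macrophages grown from the marrow of female BALB/c mice over 7 days, in medium conditioned by L929 cells, which supply macrophage colony stimulating factor. The conditions were LPS/zVAD/Nec-1, LPS/zVAD, LPS and an untreated Control, and every array holds RNA of cells grown in that medium. LPS is bacterial lipopolysaccharide, the ligand of the receptor TLR4, and was used at 10 ng/ml. The caspase inhibitor zVAD was used at 50 µM and Nec-1, or necrostatin-1, which inhibits the RIPK1 kinase, at 30 µM. Each condition had 1 Affymetrix array, so no spread between replicates could be measured, no test was made, and every difference below is one between single arrays. Treatment times and the number of mice are not stated in the labels. Cells given an inhibitor without LPS, or Nec-1 and LPS without zVAD, were not analysed here.

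Array medians over 35556 probes lay between log2 6.41 and 6.52. The labelled cell type was borne out by its markers: 9 of 10 macrophage markers were measured, all 9 passed the filter, and their signals lay between log2 11.21 and 14.05. Fewer markers of other cells passed it, with 7 of 8 for neutrophils, 6 of 8 for stromal and endothelial cells, 3 of 7 for dendritic cells, 2 of 6 for T and NK cells and 1 of 4 for B cells. The summed linear signals of the neutrophil markers were 3789 on the LPS/zVAD/Nec-1 array, 3680 on the LPS/zVAD array, 4617 on the LPS array and 3183 on the Control array. Those of the stromal and endothelial markers were 1593, 1449, 1821 and 1004 on the arrays in that order, and those of the dendritic cell markers 1554, 1665, 2019 and 498. A single gene can lead such a sum, but with LPS more than 1 neutrophil marker was higher than in Control. Ly6g (log2 ratio 1.03) and S100a9 (1.12) were at least 2-fold higher, beside 8.24% of all filtered genes. The neutrophil list had 0 markers 2-fold lower and a median log2 ratio of 0.35. Ccr7 (log2 10.67 with LPS and 6.79 in Control) was the 1 dendritic cell marker at least 2-fold higher. Of the stromal and endothelial markers, only Kdr (9.99 and 7.15) and Cdh5 were. None of the dendritic cell or the stromal and endothelial markers was 2-fold lower. Their median log2 ratios were 0.10 (dendritic) and -0.25 (stromal and endothelial). The part of such cells in the results below was not tested.

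Dying cells expose the lipid phosphatidylserine on their surface. Gas6 binds it and activates the receptors Axl and Mertk, members of the TAM kinase family, while Mfge8 binds it and engages integrins of the alpha v type. Scavenger receptors such as Msr1 and Marco bind polyanionic ligands, including modified lipoproteins and bacteria, and Stab1 takes up modified lipoproteins and matrix fragments and also binds phosphatidylserine. Caspase inhibition in macrophages given a TLR4 ligand is known to permit necroptosis, a lytic death that depends on RIPK1 and RIPK3, which is the setting in which the RIPK1 inhibitor was added.

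The 10 genes differed most with LPS itself. Setting the LPS array against the Control array asks what LPS does to these genes without an inhibitor. Axl and Marco were higher by at least 2-fold, Gas6, Scarb1 and Stab1 were lower by at least 2-fold, and the other members were closer than that. The count was therefore 2 of 10 higher, against 8.24% of the 12203 filtered genes, and 3 of 10 lower, against 7.20% of them. Cd163, under the filter level, could not be called here or below, so only 9 of the 10 compare with shares of filtered genes. Marco passed the filter only through the arrays with LPS. Because the members were chosen with earlier results of these data known, the shares are given as description only. The median log2 ratio was -0.34 over the 10 genes and -0.10 over all 19938 genes. In bulk RNA, fewer cells of a type and less RNA per cell cannot be told apart.

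Axl, a receptor for Gas6, had log2 signals of 11.92 with LPS/zVAD/Nec-1, 11.70 with LPS/zVAD, 11.96 with LPS and 10.27 in Control. The 3 arrays with LPS were all high and the Control array low. The LPS array stood 3.23-fold above Control (log2 ratio 1.69), and 4.02% of filtered genes had a ratio at least as high. Mertk, the other TAM receptor among the 10, had log2 signals of 11.0, 10.90 and 11.10 on the LPS/zVAD/Nec-1, LPS/zVAD and LPS arrays, and 10.19 in Control. It too was lowest in Control, but its ratio of 0.91 (1.89-fold) lay under the threshold, and 9.08% of genes had one at least as high. The third TAM receptor gene, Tyro3, was no member and lay between log2 6.42 and 6.52 on the 4 arrays, at the filter level.

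Gas6, the ligand of both receptors, ran the other way. Its log2 signals were 10.20 with LPS/zVAD/Nec-1, 10.76 with LPS/zVAD, 10.15 with LPS and 11.84 in Control. Control was thus the highest array, the LPS/zVAD array came next, and the other 2 arrays with LPS lay close together at the bottom. With LPS, Gas6 was 3.23-fold lower than in Control (log2 ratio -1.69), and 1.69% of filtered genes had a ratio as low. The second TAM ligand gene, Pros1, which was no member, had log2 signals of 7.91 with LPS and 8.71 in Control, a ratio of -0.80. Mfge8 had log2 signals of 8.45, 8.66 and 8.26 on the LPS/zVAD/Nec-1, LPS/zVAD and LPS arrays, and 8.36 in Control. Its LPS ratio of -0.09 turned to 0.01 when arrays were centred on their medians or scaled by cyclic loess, so it has no settled direction.

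**Figure D1:**
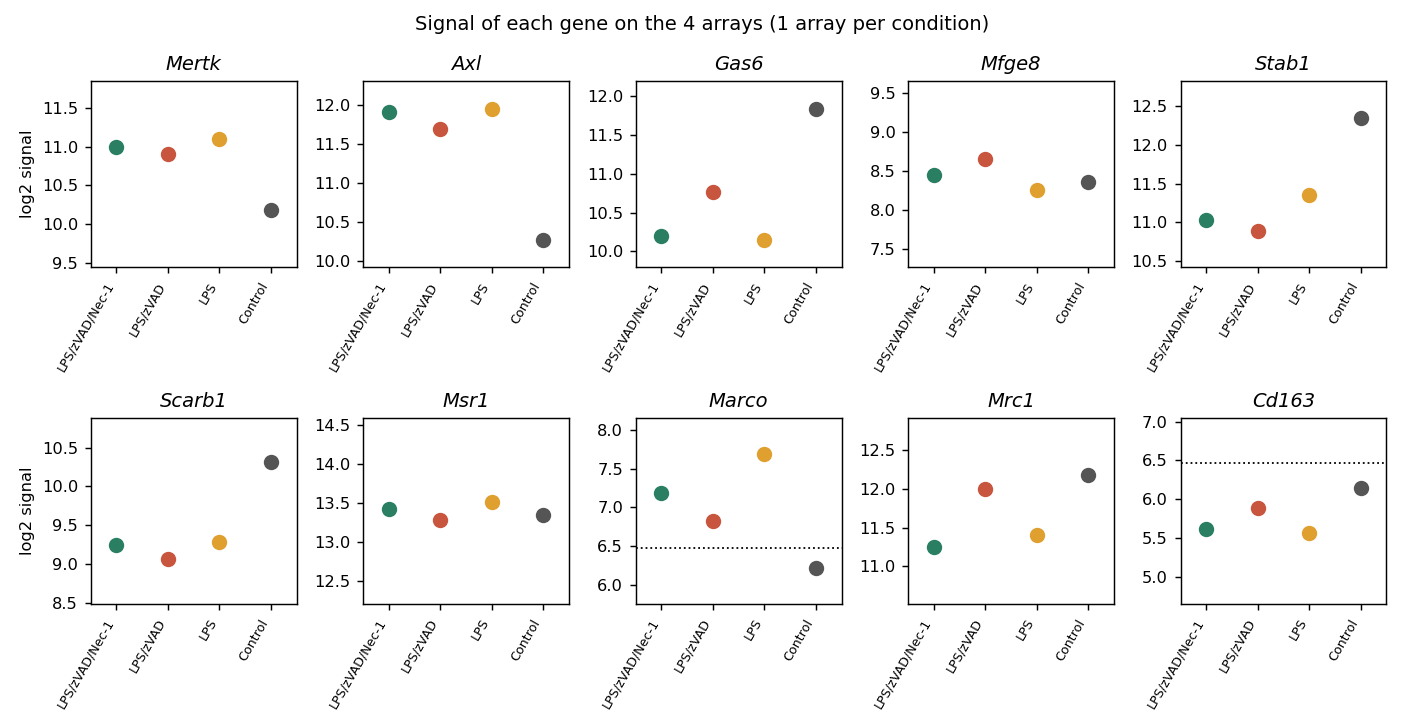
Log2 signal (vertical axes, each spanning the same number of log2 units) of the 10 genes on the 4 arrays (horizontal axes), 1 point per array. The dotted line is the filter level of log2 6.47. Axl and Mertk are lowest in Control, Gas6, Stab1 and Scarb1 are highest there, and Cd163 lies under the filter level throughout.

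Stab1 and Scarb1 shared the direction of Gas6. Stab1, which encodes stabilin-1, had log2 signals of 11.03 with LPS/zVAD/Nec-1, 10.89 with LPS/zVAD, 11.35 with LPS and 12.35 in Control. Scarb1, the receptor for high density lipoprotein, had 9.25, 9.06 and 9.29 on the LPS/zVAD/Nec-1, LPS/zVAD and LPS arrays, and 10.31 in Control. Both were highest in Control, which lay further from the arrays with LPS than those lay from each other. Their LPS ratios of -1.0 (Stab1) and -1.02 (Scarb1) sat on the 2-fold threshold, and 7.17% and 6.92% of filtered genes had ratios as low. With arrays centred on their medians, the median ratio of all filtered genes in this comparison was -0.01, against -0.12 as deposited, and Stab1 and Scarb1 then stood at -0.90 and -0.92, under the threshold, while Mertk passed it at 1.02. With cyclic loess they stood at -0.98 and -0.95.

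Msr1 and Marco are the class A scavenger receptors among the 10 genes, and Msr1 varied less than Marco. Its log2 signals were 13.43 with LPS/zVAD/Nec-1, 13.28 with LPS/zVAD, 13.52 with LPS and 13.35 in Control. These span 0.24 on the log2 scale, and signals this near the top of the array range (14.63) can compress a ratio. Marco, which binds bacteria and particles, had log2 signals of 7.19 with LPS/zVAD/Nec-1, 6.83 with LPS/zVAD, 7.69 with LPS and 6.22 in Control. The LPS array was the highest and Control, under the filter level, the lowest. Counted from the filter level, Marco was at least 2.33-fold higher with LPS, and the ratio as deposited was 1.47. Marco passed the filter only through the arrays with LPS, where it is high. Dropping the filter could not have undone its call, so that setting is no check on it.

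Mrc1, the mannose receptor CD206, had log2 signals of 11.25 with LPS/zVAD/Nec-1, 12.00 with LPS/zVAD, 11.40 with LPS and 12.18 in Control. The LPS/zVAD and Control arrays were high and the other 2 low. Its LPS ratio was -0.79 (1.72-fold lower), under the threshold, and 11.4% of filtered genes had a ratio as low. Cd163, the receptor for haptoglobin-haemoglobin complexes, lay between log2 5.56 with LPS and 6.14 in Control, under the filter level on every array, so no fold is given.

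**Figure D2:**
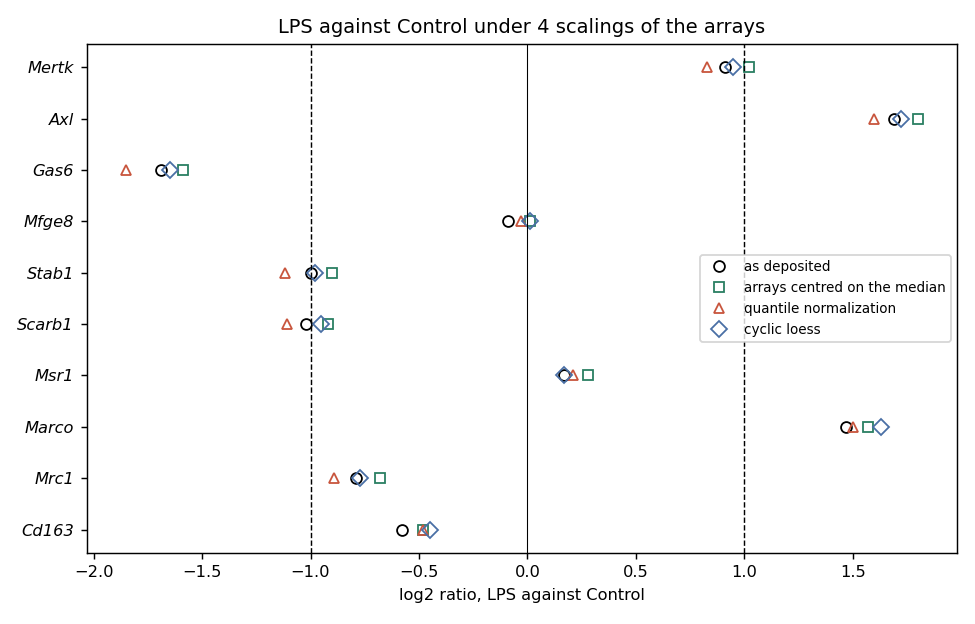
Log2 ratio of LPS against Control (horizontal axis) for the 10 genes under 4 scalings of the arrays, 1 symbol per scaling, with dashed lines at the 2-fold threshold. Axl, Marco and Gas6 lie past the threshold under all 4. Stab1 and Scarb1 lie close to it on either side, and Mertk lies under it except with centred arrays.

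Across the 3 arrays with LPS, which are compared with 1 shared Control array and do not replicate each other, Axl was at least 2-fold higher than Control in each, against 5.15% of filtered genes. Gas6, Stab1 and Scarb1 were at least 2-fold lower in each, against 4.76%. For Axl the ratios to Control were 1.65 on the LPS/zVAD/Nec-1 array, 1.43 on the LPS/zVAD array and 1.69 on the LPS array. For Gas6 they were -1.64, -1.08 and -1.69 on the same arrays. For Stab1 they were -1.32, -1.45 and -1.0, and for Scarb1 -1.07, -1.26 and -1.02. Stab1 and Scarb1 were thus furthest from Control on the LPS/zVAD array, where Gas6 and Axl were nearest to it.

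The promoters of Axl, Gas6, Stab1 and Marco, which differed by at least 2-fold, are shown to let their sequences be read beside these values. They are the 300 bases from 250 before to 50 after the RefSeq start, on the gene's strand, from GRCm38.p6, and RefSeq promoters were matched for 8 of the 10 genes, not for Scarb1 and Msr1. Capitals mark the GC box GGGCGG, the motif of Sp1-type factors, or its reverse complement CCGCCC. They also mark the short core GAGGAA, contained in many sites of the myeloid lineage factor PU.1, or its reverse complement TTCCTC. Axl lies at chr7:25788684-25788983 (minus strand), Gas6 at chr8:13494486-13494785 (minus strand), Stab1 at chr14:31168592-31168891 (minus strand) and Marco at chr1:120504975-120505274 (minus strand).
Axl: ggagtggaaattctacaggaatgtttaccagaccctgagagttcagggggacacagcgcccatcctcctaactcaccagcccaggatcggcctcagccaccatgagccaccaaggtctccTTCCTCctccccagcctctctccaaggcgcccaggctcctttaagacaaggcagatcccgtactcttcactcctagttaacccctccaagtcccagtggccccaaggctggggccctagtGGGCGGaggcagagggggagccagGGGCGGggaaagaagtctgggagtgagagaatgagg
Gas6: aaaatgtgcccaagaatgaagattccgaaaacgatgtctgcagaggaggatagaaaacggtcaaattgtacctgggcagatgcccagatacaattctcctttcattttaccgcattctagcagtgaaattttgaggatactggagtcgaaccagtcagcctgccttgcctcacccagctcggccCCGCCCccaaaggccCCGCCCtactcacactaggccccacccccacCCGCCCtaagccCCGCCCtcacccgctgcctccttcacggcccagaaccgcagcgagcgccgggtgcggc
Stab1: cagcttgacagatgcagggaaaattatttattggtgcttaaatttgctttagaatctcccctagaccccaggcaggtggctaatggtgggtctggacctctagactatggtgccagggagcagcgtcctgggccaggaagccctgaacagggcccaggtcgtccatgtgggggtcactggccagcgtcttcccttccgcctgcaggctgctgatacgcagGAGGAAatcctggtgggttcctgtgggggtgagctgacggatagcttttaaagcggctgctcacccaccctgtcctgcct
Marco: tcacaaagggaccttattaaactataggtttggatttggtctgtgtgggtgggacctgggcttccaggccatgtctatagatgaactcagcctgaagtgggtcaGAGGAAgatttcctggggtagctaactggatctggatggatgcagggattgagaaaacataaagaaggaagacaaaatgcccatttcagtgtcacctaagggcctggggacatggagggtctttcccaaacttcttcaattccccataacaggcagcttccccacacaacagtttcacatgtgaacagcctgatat

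The Axl window held GC boxes at -10 to -5 and at 15 to 20 from the start, and 1 short PU.1 core at -130 to -125. The Gas6 window held 4 GC boxes, from -66 to -3, all on the other strand, and no short PU.1 core. Stab1 held 1 short PU.1 core at -30 to -25 and Marco 1 at -146 to -141, and neither held a GC box. The receptor and its ligand, which differed from Control in opposite directions with LPS, thus both held GC boxes. Of the 8 promoters, 5 held a GC box (Mrc1, Mertk, Axl, Gas6 and Mfge8), against 35.7% of all 32851 promoters, and 5 held the short PU.1 core (Marco, Mrc1, Stab1, Axl and Mfge8), against 28.3%. Both were searched for after 4 other motifs, on both strands, had given 0 matches in the 8 promoters. Those were the interferon response core, which is GAAA and GAAA with 2 free bases between them (3.44% of all promoters), the AP-1 site TGANTCA (7.81%), the cAMP response element TGACGTCA (1.79%) and the longer PU.1 core GAGGAAGT (3.20%), which contains the short one. A match describes letters, not a bound site.

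What caspase inhibition added to LPS was described by the LPS/zVAD array relative to the LPS array. No member differed by 2-fold, so the counts were 0 of 10 higher and 0 of 10 lower, against 3.25% and 3.59% of the filtered genes. With no member called at shares this low, the counts do not set the 10 genes apart. The median log2 ratio was -0.22 over the 10 genes, -0.05 over the filtered genes and 0.03 over all genes. Marco had the largest difference, with log2 6.83 with LPS/zVAD and 7.69 with LPS, a ratio of -0.87, and 5.61% of filtered genes had one as low. Both its signals lie near the filter level.

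Gas6 and Mrc1 differed in the other direction. Gas6 had log2 10.76 with LPS/zVAD and 10.15 with LPS (ratio 0.61, 1.53-fold), and Mrc1 12.00 and 11.40 (ratio 0.60, 1.52-fold). For Gas6, 7.33% of filtered genes had a ratio at least as high, and for Mrc1 7.60%. Mfge8 followed with log2 8.66 and 8.26 (ratio 0.40). Axl (-0.26), Mertk (-0.20), Scarb1 (-0.24), Msr1 (-0.24) and Stab1 (-0.45) had ratios below 0. These differences are small beside the threshold, and the median absolute log2 ratio of the filtered genes was 0.28. At 1.5-fold, Gas6 and Mrc1 were the 2 members counted as higher (7.96% of filtered genes) and Marco the 1 counted as lower (13.2%).

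**Figure D3:**
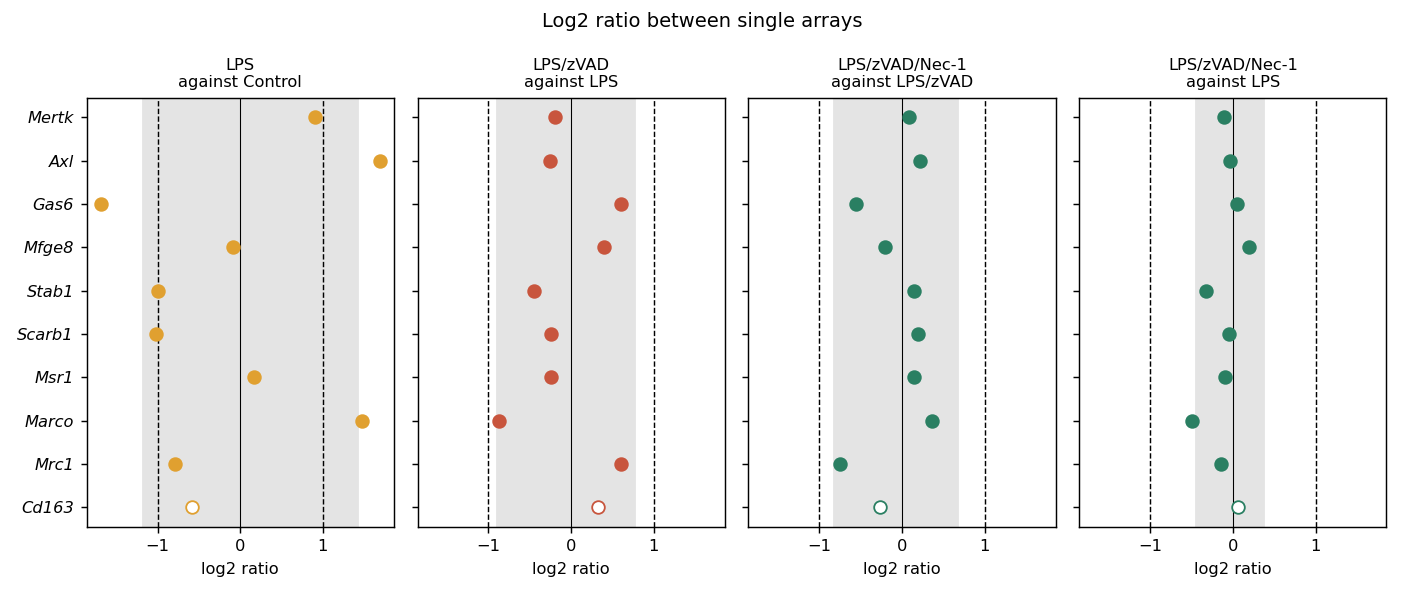
Log2 ratio between single arrays (horizontal axes) of the 10 genes in 4 comparisons, with dashed lines at the 2-fold threshold and a grey band from the 5th to the 95th percentile of the 12203 filtered genes. The open symbol is Cd163, which lies under the filter level. Members pass the threshold only in the comparison of LPS with Control, and Marco lies outside the band when LPS/zVAD/Nec-1 is set against LPS.

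The question put to the Nec-1 condition was how far differences rest on RIPK1 kinase activity. The LPS/zVAD/Nec-1 and LPS/zVAD arrays differed by under 2-fold for every member, so 0 of 10 were higher and 0 of 10 lower, against 1.14% and 3.32% of filtered genes. Mrc1 had log2 11.25 with Nec-1 and 12.00 without it, a ratio of -0.75 (1.68-fold lower), and 5.70% of filtered genes had one as low. Gas6 had log2 10.20 with Nec-1 and 10.76 without it, a ratio of -0.56 (1.48-fold lower), and 8.57% had one as low. Marco stood at 7.19 and 6.83, a ratio of 0.36. The other 6 members past the filter had ratios between -0.21 (Mfge8) and 0.22 (Axl). At 1.5-fold, Mrc1 was the 1 member counted as lower, against 8.19% of filtered genes.

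With both inhibitors, signals were close to those with LPS alone. The counts were 0 of 10 higher and 0 of 10 lower between the LPS/zVAD/Nec-1 and LPS arrays, against 0.0738% and 0.541% of filtered genes. For Axl the log2 signals were 11.92 and 11.96, for Scarb1 9.25 and 9.29, and for Gas6 10.20 and 10.15. The small ratios of these 3 genes changed sign under at least 1 other scaling, so none has a direction here. Marco had the largest ratio, -0.50 (log2 7.19 with LPS/zVAD/Nec-1 and 7.69 with LPS), and 3.99% of filtered genes had one as low. Stab1 followed with -0.32 (11.03 and 11.35), as low as in 10.9% of genes. Its signal was lower than with LPS alone on both arrays with zVAD. As deposited, the same held for Msr1, Marco, Mertk, Axl and Scarb1, so this does not set Stab1 apart.

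By root mean square difference of log2 signals around each gene's own mean over the 4 arrays, the nearest of 11688 other filtered genes were as follows. Axl lay nearest to Lgals9 (0.024), Rnf31 (0.028) and Dcp1a (0.036). Gas6 lay nearest to Nat10 (0.037), Ica1 (0.045) and Mmgt1 (0.051). Scarb1 lay nearest to Tdp2 (0.007), Aatf (0.008) and Nudcd2 (0.017), and Stab1 to Galnt4 (0.038), Nr2c2ap (0.042) and Zfp395 (0.045). Marco had the least close neighbours, Pik3r6 (0.058), Ccdc173 (0.061) and Agrn (0.063). With 4 arrays, such nearness describes these values and no more.

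Other genes of scavenging and dead-cell clearance were described from 7 lists by role, with 83 of 87 listed genes measured and 75 past the filter. With LPS against Control, 13 were higher and 8 lower by at least 2-fold, against 8.24% and 7.20% of all filtered genes (median log2 ratio -0.14, and -0.10 over all genes). These lists too were chosen with earlier results of these data known, so all their counts, here and below, are description only. Counts within single lists are also small. The shares are of filtered genes, while list sizes count all measured genes, also those that could not be called. Among other scavenger receptors, 3 of 16 measured genes were higher and 1 lower. Olr1, the oxidised LDL receptor LOX-1, had log2 10.83 with LPS and 6.13 in Control, at least 20.5-fold higher counted from the filter level. Cxcl16, a transmembrane chemokine that also binds oxidised LDL, was 5.31-fold higher (12.49 and 10.08), Scarf1 3.25-fold higher and Colec12 2.21-fold lower. Cd36 differed little, at 13.09 and 13.18.

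Other receptors of dead cells were split, with 3 of 17 higher and 5 lower, beside 8.24% and 7.20% of all filtered genes. The same shares apply to the lists that follow, where a count of 1 is near them. The phosphatidylserine receptors Timd4 (TIM-4) and Havcr1 (TIM-1) were higher, Timd4 by 4.64-fold (log2 8.96 with LPS and 6.75 in Control) and Havcr1 by at least 2.57-fold. Cd300lb was 3.64-fold lower (8.47 and 10.34), and Itgb5, an integrin subunit that pairs with alpha v, was 2.92-fold lower (10.92 and 12.47). Of the bridging and opsonin genes, 1 of 11 was higher, Thbs1 (thrombospondin 1, 5.65-fold), and 0 were lower. Of the signals and inhibitors, 3 of 7 were higher and 0 lower: Xkr8, a phospholipid scramblase, by 4.44-fold, Cd47, an inhibitor of engulfment, by 2.68-fold, and Pecam1 by at least 3.16-fold. In engulfment signalling 1 of 11 was lower, Elmo2, by 2.43-fold. Of 10 regulators and shedding proteases, 2 were higher and 1 lower. The LXR alpha gene Nr1h3 was 3.08-fold higher (log2 9.26 with LPS and 7.64 in Control), and Pparg, a lipid-activated nuclear receptor, 3.40-fold lower (8.0 and 9.77). Irf4, a transcription factor, was called on a log2 ratio of 1.08, but its Control signal of 5.82 lay under the filter level. Counted from that level it was at least 1.35-fold higher, which is under the 2-fold threshold. Of 12 genes of degradation and lipid efflux, 1 was higher, the exporter gene Abcg1, by 2.06-fold, and 0 were lower.

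**Figure D4:**
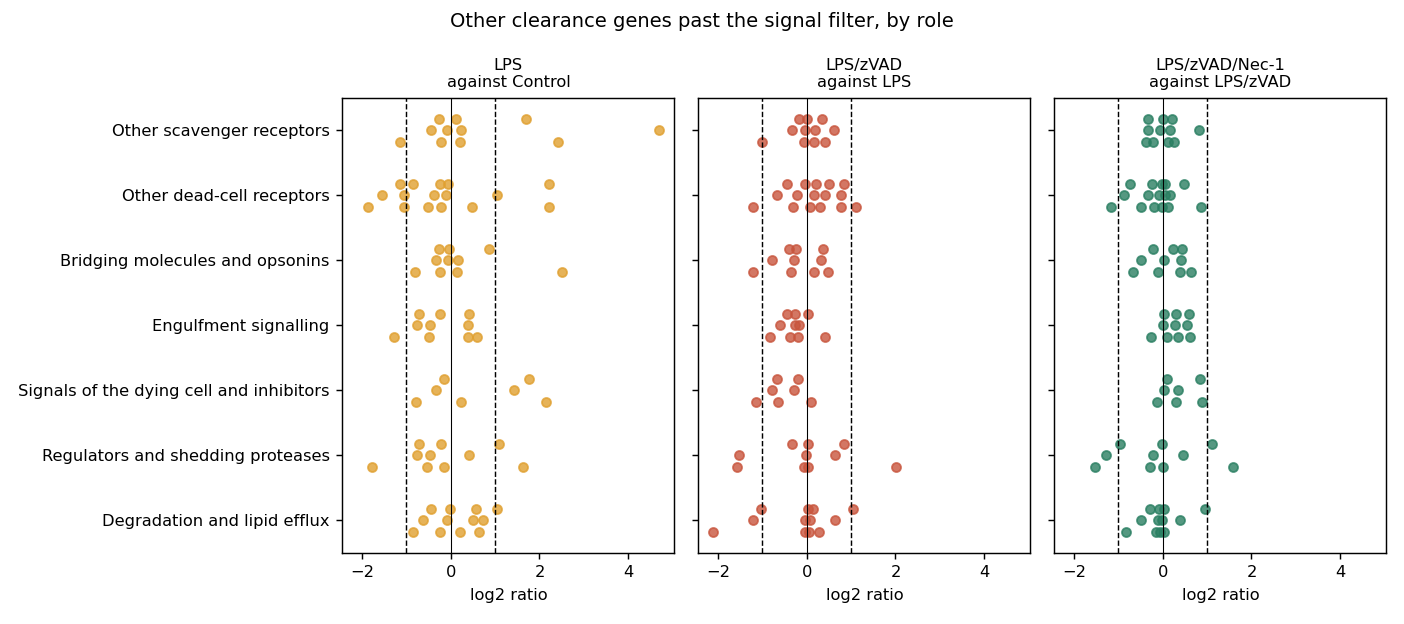
Log2 ratio between single arrays (horizontal axes) of the other clearance genes past the filter in 3 comparisons, 1 point per gene, grouped by role and spread vertically for legibility, with dashed lines at the 2-fold threshold. Ratios with LPS against Control reach 4.70 (Olr1), and those with LPS/zVAD against LPS run from -2.10 (Abca1) to 2.01 (Pparg).

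With LPS/zVAD against LPS, 3 of the 83 genes (75 past the filter) were higher and 9 lower, against 3.25% and 3.59% of all filtered genes. The median was -0.03, beside -0.05 over the filtered genes and 0.03 over all genes. The higher count is near its background share, and both counts are description only, because the lists were chosen with earlier results known. The alpha v integrin gene Itgav, a partner of Mfge8, was 2.15-fold higher (log2 11.63 with LPS/zVAD and 10.52 with LPS). Itgb3, its beta 3 partner, had log2 7.55 and 6.77, a ratio of 0.78, under the threshold. Itgb5, which also pairs with alpha v, went the other way, with log2 10.61 and 10.92, a ratio of -0.31. Of the 10 measured regulators and shedding proteases, Pparg was 4.03-fold higher (10.01 with LPS/zVAD and 8.0 with LPS, beside 9.77 in Control). Nr1h3 was 2.88-fold lower (7.74 with LPS/zVAD and 9.26 with LPS, beside 7.64 in Control) and the transcription factor gene Maf 2.98-fold lower (10.22 and 11.79). The lipid exporters Abca1, Abcg1 and Abca7 were 4.30-fold, 2.33-fold and 2.06-fold lower, and Dnase2a, the lysosomal nuclease that digests DNA of engulfed cells, was 2.06-fold higher. Scarf1, Timd4, Thbs1 and Pecam1 were lower too, with log2 ratios from -1.21 (Timd4, Thbs1) to -1.01 (Scarf1).

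With LPS/zVAD/Nec-1 against LPS/zVAD, 2 of the 83 (75 past the filter) were higher and 3 lower, against 1.14% and 3.32% of all filtered genes (median 0.02, and 0.05 over all genes). The lower count is near its background share. Maf was 3.01-fold higher (log2 11.81 with Nec-1 and 10.22 without it) and Nr1h3 2.16-fold higher (8.85 and 7.74). Pparg was 2.89-fold lower (8.48 and 10.01), Itgav 2.23-fold lower (10.47 and 11.63), and the transcription factor gene Irf4, at the filter level with Nec-1, was at least 2.41-fold lower. Against LPS alone, LPS/zVAD/Nec-1 had 0 genes higher and 2 lower, against 0.0738% and 0.541% of filtered genes (median -0.01, and 0.04 over all genes). Abca1 stood at log2 7.92 with LPS/zVAD/Nec-1, 7.93 with LPS/zVAD, 10.03 with LPS and 9.82 in Control, low on both arrays with zVAD, and Havcr1 had 6.82 with LPS/zVAD/Nec-1 and 7.83 with LPS.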

How the data were processed

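RNA of bone-marrow-derived macrophages in 4 conditions was hybridised to 1 array each, and samples were grouped by title. The deposited values are log2 gene-level signals that the authors produced in Affymetrix Expression Console, as the submitters' processing notes name it. That these are log2 values was judged from their range, 3.10 to 14.63. Software version, background correction and normalization are not stated there, so an offset between arrays would move every ratio; 3 further scalings were tried.

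Symbols came from the platform annotation: 21789 probes had 1 symbol, 1621 several and 12146 none, and only the first were used, by the probe with the highest mean. A gene passed the filter at log2 6.47 or above on at least 1 array. Ratios are differences of log2 signals between single arrays, called at 2-fold. A fold against a signal under the filter level is a bound counted from it. limma 3.58.1 did the scalings, and Python 3.11.15 the rest.

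The members and lists were chosen with earlier results of these data known. All members are named, with up to 4 genes of each list and comparison by size of ratio and the 3 nearest profiles. Genes named beyond that rule (Tyro3 and Cd36, as relatives of members) were chosen after their values were seen. Listed genes that were not matched to a probe of 1 symbol were not analysed here. Alternatives were the scalings, thresholds of 1.5-fold and 3-fold, no filter, and the mean of a gene's probes.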

Additional observations from a re-analysis of the deposited data

How the results depend on the processing

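Of 160 member ratios recomputed under 3 scalings and with probes averaged, 5 crossed the 2-fold threshold. All were for LPS against Control (Stab1 and Scarb1 with centred arrays and with cyclic loess, Mertk with centred arrays). None of the called ratios changed sign, but 10 recomputed ratios of members not called had another sign than as deposited. Of 56 member counts, 49 stayed within 1.5 times the count as deposited. For LPS against Control the lower count was 1 (Gas6) with centred arrays, 1 with cyclic loess and 1 with a 3-fold threshold, against 3 as deposited, and the higher count with a 3-fold threshold was 1 (Axl), against 2. At 1.5-fold, LPS/zVAD against LPS gave 2 higher and 1 lower, and LPS/zVAD/Nec-1 against LPS/zVAD gave 1 lower, where 2-fold gave 0. The change with centring and loess follows from 2 ratios that lie on the threshold. Averaging probes could change no member, since each has 1 probe, and dropping the filter could only add Cd163. What these settings gave is therefore no check on the calls, though it is included in the totals of 160 and 56. Of the other clearance genes, added after seeing the data, 12 to 13 were higher and 6 to 7 lower with LPS under the scalings, against 13 and 8 as deposited, and 2 to 3 higher and 7 to 9 lower with LPS/zVAD against LPS, against 3 and 9. No paired analysis was possible because each condition has 1 array. Precision is limited by the number of arrays, and signals under the filter level (Marco in Control, Cd163 on every array) were not separated from background.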
